A study of Caenorhabditis elegans with 2 samples.

Results

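The genes described here are named after translation initiation factors of Caenorhabditis elegans. They were chosen by name as the protein-coding genes of Ensembl WBcel235 whose name starts with eif-, ife-, ifg- or ifet-. The rule gave 32 genes of 19973 on the nuclear chromosomes. It used no measured value, but it was chosen with earlier results of these data known. The rule leaves out initiation factor genes with other names, such as egl-45 and cif-1 for subunits of eIF3. It goes by name, so not every product need be an initiation factor. That of ifet-1 binds eIF4E and represses translation.

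The study mapped binding of ZIP-4, a basic leucine zipper (bZIP) transcription factor, by chromatin immunoprecipitation and sequencing (ChIP-seq) of whole larvae. There was 1 group with 2 biological replicates: mixed-sex L1 larvae of strain OP590, 6 hours of age, which were starved after bleaching. All carried the unc-119(tm4063) allele and the transgene wgIs590, which expresses zip-4::TY1::EGFP::3xFLAG beside unc-119(+), and the sample description gives an antibody to GFP for the precipitation. Another label gives zip-4 as the antibody, so whether untagged ZIP-4 was also precipitated cannot be told from the labels. No untagged, fed or older larvae were analysed here, so nothing below compares conditions. The sources used here do not give what drives the transgene or its copy number. Whole larvae mix all tissues, so binding in few cells and weak binding in many cannot be told apart.

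Translation initiation is the step at which the small ribosomal subunit finds the start codon of an mRNA. eIF2 brings the initiator tRNA with GTP, and eIF2B recharges eIF2 with GTP. eIF3 is a large scaffold on the small subunit, eIF4E binds the mRNA cap, and eIF4G links eIF4E to the ribosome. When cells lack amino acids or suffer stress in the endoplasmic reticulum, kinases phosphorylate the alpha subunit of eIF2. That blocks eIF2B and lowers overall translation while a few stress mRNAs, among them those of certain bZIP factors, are translated more.

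Each replicate and the pooled reads had a list of 30000 candidate regions, ranked here by the deposited signal value, where rank 1 is the strongest. The authors' optimal set, made with a repeatability threshold, held 1290 peaks, and those are the 1290 strongest pooled regions. A single peak in it need not be strong in both replicates. Of the 876 optimal peaks in protein-coding promoters, 623 (71.1%) had a match within 100 bp among the 1290 strongest regions of each replicate. A promoter was the stretch between 1000 bp before and 200 bp after an annotated transcript start, and a region belonged to a gene when its summit lay in that window. Distances below are of the summit from the nearest start of the named gene, with a minus sign for upstream. The sources used here give no read numbers, so the depth behind each value is unknown, and the intervals below reflect only the number of genes counted.

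Among the initiation factor genes, 12 of 32 had an optimal ZIP-4 peak in the promoter. That is 37.5% (95% Clopper-Pearson interval 21.1 to 56.3%), against 5.71% of all protein-coding genes (1141 of 19973). The 12 were ifet-1, ifg-1, ife-2, 6 genes of eIF3 subunits (eif-3.B, eif-3.C, eif-3.D, eif-3.E, eif-3.I and eif-3.J), eif-2beta, and the eIF2B genes eif-2Bgamma and eif-2Bdelta. A further 14 members had only weaker pooled regions, and 6 had none. No test was made, since members are genes of the same libraries and not replicates.

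Sequence at the summits is shown for 4 promoters: those of ifet-1 and eif-3.B, whose peaks were the first and the third by strength among the members, and those of ifg-1 and eif-2Bdelta, which hold words of bZIP type. Each is 101 bases centred on the summit, on the strand of the named gene, from the RefSeq copy of WBcel235 (ce11). Capitals mark the words searched. They are the C/EBP-type words TTGCNNAA and TTACNNAA, the CREB core TGACGT, the E-box CACGTG and the GA repeat GAGAGAGA, looked for on both strands. TTGCGAAA is a form of the first.
ifet-1, III:4475605-4475705, minus strand: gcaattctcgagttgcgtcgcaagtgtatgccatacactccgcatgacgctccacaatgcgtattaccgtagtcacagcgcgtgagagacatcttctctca
eif-3.B, II:14795108-14795208, plus strand: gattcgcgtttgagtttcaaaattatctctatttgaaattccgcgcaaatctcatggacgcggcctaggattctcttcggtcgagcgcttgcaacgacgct
ifg-1, II:8216760-8216860, plus strand: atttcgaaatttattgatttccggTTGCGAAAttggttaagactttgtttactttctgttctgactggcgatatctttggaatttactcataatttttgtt
eif-2Bdelta, V:9513731-9513831, plus strand: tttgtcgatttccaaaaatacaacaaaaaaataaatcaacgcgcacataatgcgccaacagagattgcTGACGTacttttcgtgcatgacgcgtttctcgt

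A C/EBP-type word lay within 50 bp of the summit in 15.4% of the optimal peaks in member promoters. The share was 27.3% over all 876 optimal promoter peaks and 17.3% over all protein-coding promoters. Of the 13 optimal peaks in member promoters, 2 (15.4%) held TTGCNNAA within 50 bp, those of ifg-1 and eif-2beta, and in both the word was TTGCGAAA, on the strand of ifg-1 and on the strand opposite to eif-2beta. Its centre stood 22.5 bp from the summit at ifg-1 and 32.5 bp from it at eif-2beta. TTGCNNAA was in 24.1% and TTGCGAAA in 17.1% of all 876 optimal promoter peaks, and they were in 10.2% and 1.03% of windows of that length at all protein-coding promoters, centred at -188 bp from the first start. TTACNNAA was in none of the 13 member peaks, against 5.37% of all optimal promoter peaks and 7.97% of all promoters. TGACGT was in 1 of the 13, at eif-2Bdelta with its centre 20.5 bp from the summit, against 5.59% and 3.48%. CACGTG and GAGAGAGA were in none of the 13. They were in 3.20% and 4.0% of all optimal promoter peaks, and in 1.60% and 1.20% of all promoters. These shares were not tested against each other, and a word is a match of letters, not a shown binding site.

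**Figure D1:**
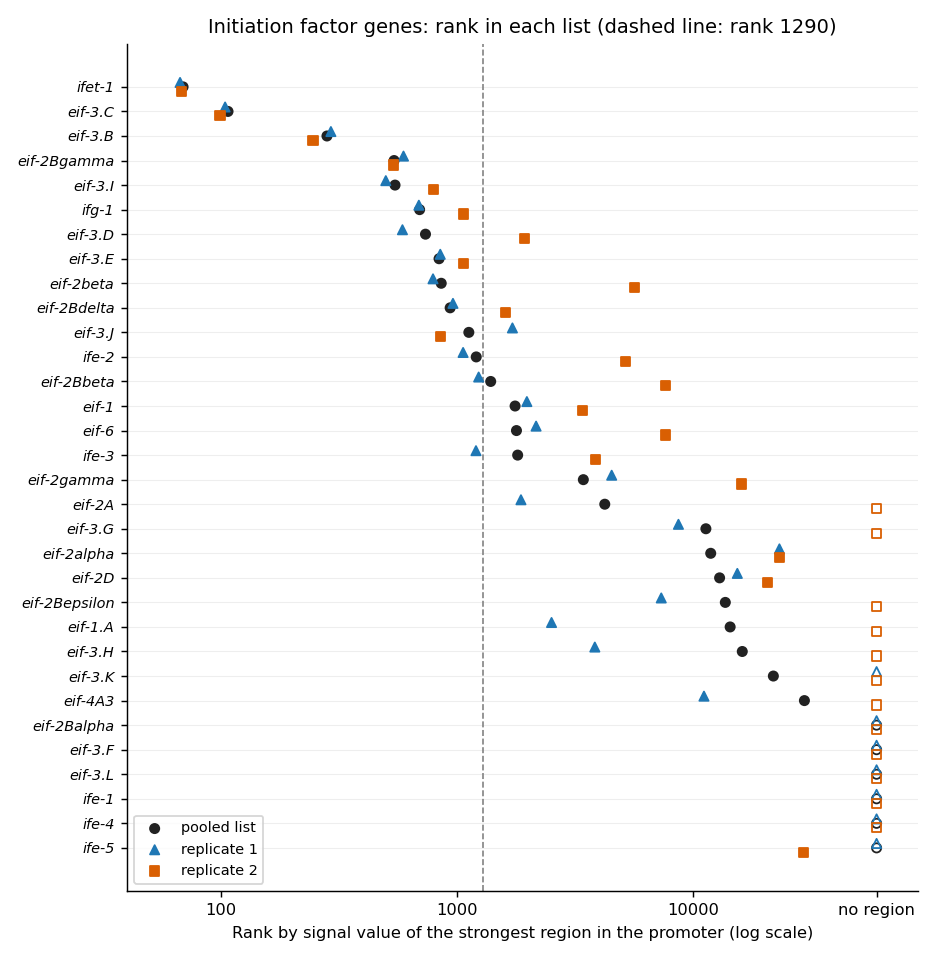
Rank by signal value (log scale) of the strongest region in the promoter of each of the 32 members, in the pooled list (circles), replicate 1 (triangles) and replicate 2 (squares); open marks at the right mean no region. The dashed line is rank 1290, the size of the optimal set: 12 members lie left of it for pooled reads, 13 in replicate 1 and 8 in replicate 2.

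The strongest peak of the group was at ifet-1, which encodes the eIF4E transporter, an eIF4E-binding repressor of translation that is best known from the germline. It covered III:4475551-4475772 and had a pooled signal value of 530.1 (rank 69), 339 in replicate 1 (rank 67) and 190.5 in replicate 2 (rank 68). Both replicates placed it alike, with summits 2 and 10 bp from the pooled summit. The summit stood at -505 bp from ifet-1, and at -263 bp from rps-1, a ribosomal protein gene that starts on the other strand, so the peak cannot be given to either gene alone. It also fell in exons of the annotated non-coding RNA genes F56F3.10 and F56F3.11, which overlap each other on opposite strands. Neither C/EBP-type word lay within 100 bp of this summit.

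The peak of ifg-1, which encodes eIF4G, was weaker. It covered II:8216612-8217007 in intergenic sequence and had a pooled signal value of 127 (rank 694), 84.75 in replicate 1 (rank 689) and 34.8 in replicate 2 (rank 1066). The annotation gives ifg-1 5 starts, and the summit stood at -412 bp from the nearest and at -194 bp from the start of M110.3 on the other strand. Among the 5 genes for eIF4E, ife-2 alone had an optimal peak, at X:382741-383136 with the summit at -230 bp. IFE-2 is an eIF4E of somatic tissue. Its peak had a pooled signal value of 83.2 (rank 1206), 61.75 in replicate 1 (rank 1061) and 20.8 in replicate 2 (rank 5187). It was thus among the 1290 strongest regions of replicate 1 and far below them in replicate 2, where its q-value was 0.295.

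The other eIF4E genes had no optimal peak. ife-3, whose product is the closest worm counterpart of mammalian eIF4E, had a pooled region at -997 bp with a signal value of 65.3 (rank 1807), which also lay at -86 bp from the start of B0348.10. That summit is just inside the window. In replicate 1 the region was at -990 bp with a signal value of 56.5, rank 1203 and a q-value of 0.017, among the 1290 strongest of that replicate. In replicate 2 the region found for ife-3 was another, at -450 bp (signal value 22.4, rank 3849). No region of the 3 lists lay in the promoters of ife-1, a germline eIF4E, or of ife-4, a relative of the mammalian cap-binding repressor 4EHP. ife-5 had none in the pooled list and replicate 1, and in replicate 2 a region at 187 bp with a signal value of 11.8 and rank 29314.

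eIF3 has the most genes of any complex in the group. Of the 11 subunit genes that the name rule takes, 6 had an optimal peak. The counts were 2 of 5 for eIF2B, 1 of 5 for eIF4E and 1 of 3 for eIF2, and they were not tested against each other. The strongest eIF3 peak was at eif-3.C, a core subunit, at I:9979799-9980002 with the summit at -261 bp. It had a pooled signal value of 402 (rank 107), 259 in replicate 1 (rank 104) and 149 in replicate 2 (rank 99), and its summit was at the same base in all 3 lists. The peak of eif-3.B, another core subunit, covered II:14794960-14795355 with the summit at -246 bp. It had 229 in the pooled list (rank 281), 146 in replicate 1 (rank 292) and 89.0 in replicate 2 (rank 245). Both lay in intergenic sequence and in the promoter of no other protein-coding gene, and both were among the 300 strongest regions of each list.

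The peaks of eif-3.I, eif-3.D and eif-3.E were of middle rank and lay beside a gene on the other strand. That of eif-3.I, a WD-repeat subunit, was at I:2485455-2485850, -208 bp from eif-3.I and -262 bp from abtm-1, which encodes a mitochondrial ABC transporter. It had a pooled signal value of 152 (rank 546), 108 in replicate 1 (rank 499) and 41.5 in replicate 2 (rank 793). That of eif-3.D, whose human counterpart can bind the cap, was at III:8971636-8972031, -256 bp from eif-3.D and -58 bp from R08D7.4. It had 121 in the pooled list (rank 735) and 95.6 in replicate 1 (rank 587), but 27.0 and rank 1936 in replicate 2, with a q-value of 0.0969 there and the summit 47 bp away. That of eif-3.E was at I:10642310-10642705, -227 bp from eif-3.E and -521 bp from B0511.17, with 109 in the pooled list (rank 839), 72.8 in replicate 1 (rank 849) and 34.9 in replicate 2 (rank 1065).

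The peak at eif-3.J, a loosely bound subunit, lay farther upstream than those of the other subunits. Its summit stood at -923 bp, in the annotated 3′ UTR of the upstream gene slc-25A46, at I:13434368-13434763. It had a pooled signal value of 87.9 (rank 1122), 45.9 in replicate 1 (rank 1717, q-value 0.0731) and 39.6 in replicate 2 (rank 853, q-value 0.00997). It was the one member peak with a q-value above 0.05 in replicate 1. The other 5 eIF3 summits all fell between -261 and -208 bp.

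The remaining 5 eIF3 genes had no strong region. eif-3.H had a pooled rank of 16178 at -241 bp, eif-3.G 11343 at 165 bp in its own intron and eif-3.K 21911 at 23 bp in its own coding sequence. None of these was found in replicate 2. In replicate 1, eif-3.H had rank 3837 and eif-3.G 8678, and eif-3.K had no region. eif-3.F and eif-3.L had no region in any of the 3 lists. The eIF3 genes egl-45 and cif-1, which the name rule leaves out and which were added after the values were seen, had none either.

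**Figure D2:**
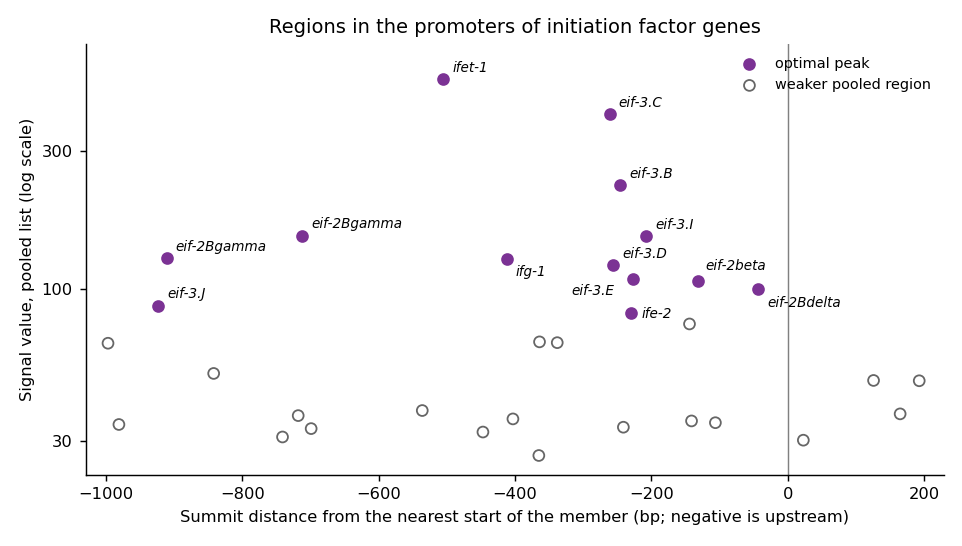
Summit distance in bp from the nearest start of the member (x axis) against pooled signal value (y axis, log scale) for every pooled region in a member promoter; filled points are optimal peaks and open points weaker regions. All 13 optimal summits lie upstream of the nearest start, 8 of them within 300 bp, and the strongest, at ifet-1, stands at -505 bp.

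Of the 3 genes for eIF2 itself, eif-2beta alone had an optimal peak. It covered I:8027726-8028121, inside an intron of eif-2beta, at -132 bp from the second of its 2 annotated starts. The pooled signal value was 107 (rank 857), 77.1 in replicate 1 (rank 791) and 20.35 in replicate 2 (rank 5648), and the q-value in replicate 2 was 0.312. The 101 bases around its summit held TTGCGAAA and had the lowest GC content of the 13 peaks (24.8%, against a median of 47.5% over the 13 and 46.5% over all optimal promoter peaks).

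The other eIF2 genes had weaker regions only. eif-2gamma, whose product binds GTP and the initiator tRNA, had its best pooled region at -842 bp (signal value 51.4, rank 3430). That region lay at -67 bp from the upstream gene tbca-1. It had rank 5079 in replicate 1 and was not found in replicate 2. Another region, in the coding sequence of eif-2gamma at 126 bp, had a pooled signal value of 48.6 (rank 4206). This one was the best of the promoter in replicate 1 (138 bp, rank 4523) and replicate 2 (104 bp, rank 16036). An optimal peak lay just outside the eif-2gamma window at -1041 bp (rank 465). eif-2alpha, the target of the stress kinases, had a best rank of 11890 at -718 bp, in an intron of the upstream gene phb-1, and ranks of 23246 in replicate 1 and 23188 in replicate 2.

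Of the 5 eIF2B genes, eif-2Bgamma and eif-2Bdelta had optimal peaks. eif-2Bgamma, a catalytic subunit gene, had a pair of them, at II:6968162-6968557 (summit at -712 bp) and II:6968361-6968756 (-911 bp), within an intron of its upstream neighbour C15F1.5. The nearer had a pooled signal value of 153 (rank 541), 95.1 in replicate 1 (rank 593) and 54.1 in replicate 2 (rank 539). The farther had 128 (rank 683), 90.6 (rank 629) and 35.7 (rank 1025). These summits stood 34 bp and 1 bp from sup-39, a small nuclear RNA (snRNA) gene at II:6968394-6968558 in that intron, so both were nearer to sup-39 than to the start of eif-2Bgamma. The farther summit also fell in an exon of the non-coding RNA gene C15F1.14, which overlaps sup-39 on the other strand. Over the whole optimal set, 153 peaks lay within 200 bp of a tRNA, snRNA or snoRNA gene. Without those peaks, 11 of 32 members (34.4%) held a peak, against 5.41% of all genes.

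The peak of eif-2Bdelta, a regulatory subunit gene, lay closest to its start of all 13. It covered V:9513583-9513978 with the summit at -43 bp, and had a pooled signal value of 100.3 (rank 935), 66.0 in replicate 1 (rank 961) and 28.6 in replicate 2 (rank 1604, q-value 0.0689). eif-2Bbeta was just below the optimal set. Its pooled region at -144 bp had a signal value of 76.1 (rank 1389) and a q-value of 0.0313, with rank 1235 in replicate 1 and 7631 in replicate 2, and it also lay at -60 bp from Y47H9C.8. For comparison, the weakest member peak inside the set was that of ife-2 at 83.2. eif-2Bepsilon, the main catalytic subunit gene, had a pooled rank of 13710, rank 7338 in replicate 1 and no region in replicate 2. eif-2Balpha had none in any list.

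The other members had no optimal peak. eif-1, for a factor in start codon choice, had a region at -364 bp with 66.0 in the pooled list (rank 1762), 43.1 in replicate 1 (rank 1977) and 23.1 in replicate 2 (rank 3390), which lay at -54 bp from vps-24 on the other strand. eif-6, for a factor that keeps the large ribosomal subunit free, had one at -338 bp with 65.6 (rank 1786), 41.5 (rank 2163) and 18.8 (rank 7644), shared with the proteasome subunit gene pbs-2 at -328 bp. These 2 stood in the same place in all 3 lists. eif-2A had a region in its own intron at 193 bp, with rank 4228 in the pooled list, 1866 in replicate 1 and none in replicate 2. The pooled ranks of eif-2D, eif-1.A and eif-4A3 were 12967, 14372 and 29668. In replicate 1 their ranks were 15416, 2515 and 11132. In replicate 2, eif-2D had rank 20749, and eif-1.A and eif-4A3 had no region.

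**Figure D3:**
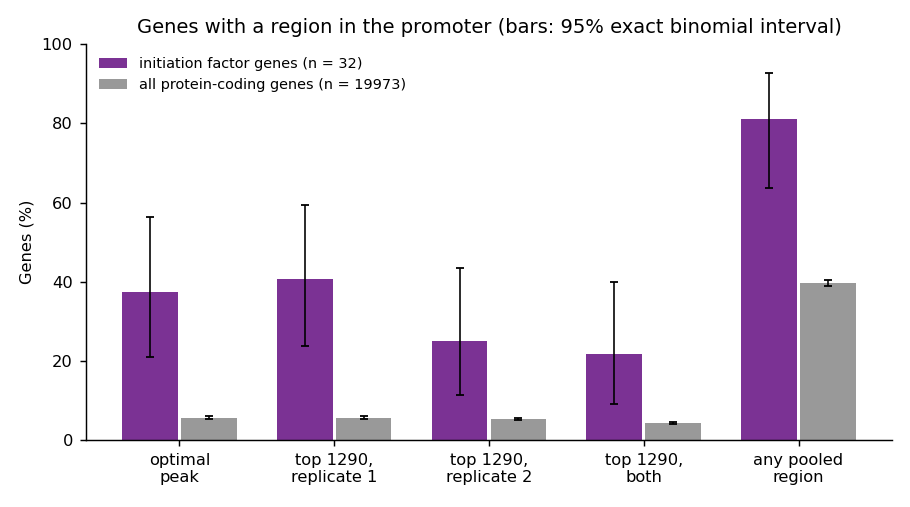
Share of genes (%) with a region in the promoter under 5 rules, for the 32 initiation factor genes (left bars) and all 19973 protein-coding genes (right bars), with 95% exact binomial intervals over genes. For an optimal peak the shares are 37.5% and 5.71%, and for the 1290 strongest regions of both replicates 21.9% and 4.35%.

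Replicate 1 held more of these genes than replicate 2. Among its own 1290 strongest regions, replicate 1 had a promoter region for 13 members (40.6%, 23.7 to 59.4%), against 5.75% of all genes. Replicate 2 had one for 8 members (25%, 11.5 to 43.4%), against 5.34%. Both replicates held 7 members (21.9%, 9.28 to 40%), against 4.35% of all genes. The 7 were ifet-1, ifg-1, eif-2Bgamma, eif-3.B, eif-3.C, eif-3.E and eif-3.I, and each has an optimal peak. The optimal set was made from these same replicates, so it is not independent of them.

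The ratio of signal between the replicates varied among the member peaks. Every one of the 13 member peaks had a region with its summit within 100 bp in each replicate. Signal in replicate 1 was 2.31 times that in replicate 2 at the median member peak, with a range of 1.16 (eif-3.J) to 3.79 (eif-2beta), against a median of 1.90 over the 835 optimal promoter peaks with a region in both. The signal scale may differ between the lists. Of the 13 member peaks, 8 (61.5%) matched the 1290 strongest regions of both replicates, against 71.1% of all 876 optimal promoter peaks. The median rank in replicate 2 was 1025 over the member peaks and 586 over all of them. The 4 member peaks among the 1290 strongest regions of replicate 1 but not of replicate 2 were those of eif-2beta, eif-3.D, ife-2 and eif-2Bdelta. At eif-3.D and ife-2 the ratio was 3.54 and 2.97, and at eif-2Bdelta it was the median itself, against 1.78 at ifet-1, 1.73 at eif-3.C and 1.64 at eif-3.B. At a q-value of 0.05 or less, 11 of the 12 members with an optimal peak passed in replicate 1 and 8 in replicate 2, 7 of them in both. The same counts over all genes with an optimal peak were not made, so these describe the single members only. Whether depth or the larvae differ between the replicates was not tested.

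**Figure D4:**
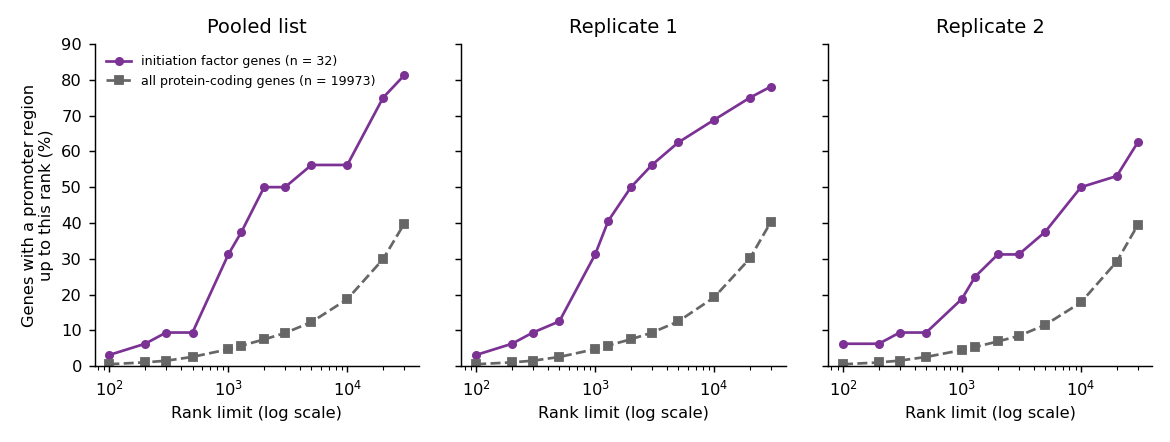
Share of genes (%) whose promoter holds a region up to a given rank (x axis, log scale), with panels for pooled reads, replicate 1 and replicate 2, for the initiation factor genes (circles) and all protein-coding genes (squares). At rank 1000 the shares are 31.2% and 4.70% for pooled reads, 31.2% and 4.74% in replicate 1, and 18.8% and 4.49% in replicate 2.

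The members' peaks were of middle strength within the optimal set. Up to rank 300 of the pooled list there were 3 members (9.38%, against 1.5% of all genes), up to rank 1000 there were 10, and up to rank 2000 there were 16 (50%, against 7.46%). The median signal value was 127 over the 13 member peaks and 143 over all 876 optimal promoter peaks. Counting any pooled region, 26 members (81.2%, 63.6 to 92.8%) had one, against 39.7% of all genes, and the median rank of the best region was 1575.5 over those 26 and 10875 over all genes with a region. With the pooled regions at a q-value of 0.05 or less, 13 members (40.6%) were called, against 6.23% of all genes. The gain over the optimal set was eif-2Bbeta.

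All 13 member summits were upstream of the nearest start, with a median of -256 bp and a range of -923 to -43 bp. That of eif-2beta was inside the gene, before the second of its 2 starts. Over the 876 optimal promoter peaks the median was -188 bp, and 816 were upstream of the nearest start. By annotation, 8 of the 13 were intergenic and 3 in introns of protein-coding genes, 1 of these also in the exon of C15F1.14, with the others in the 3′ UTR named above and in non-coding RNA exons. Summits of 5 of the 13 (38.5%) lay in the promoter of another protein-coding gene as well, against 35.5% of all optimal promoter peaks. With only summits in the promoter of a single gene, 7 members (21.9%) held a peak, against 2.65% of all genes, and eif-3.D, eif-3.E, eif-3.I, ifet-1 and ifg-1 were those lost.

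Gene layout bears on shared promoters. Within 1000 bp upstream, 15 of the 32 members (46.9%) had a protein-coding neighbour on the other strand, against 17.2% of all genes. Among the members, 33.3% of those with such a neighbour (5 of 15) and 41.2% of those without (7 of 17) held an optimal peak, against 14.3% and 3.92% over all genes, and the part of this layout in the result was not tested. Worm genes can also share a promoter as operons. Members were taken as possible followers where the upstream gene lay on the same strand with a gap of at most 500 bp. There were 7 of 32 such members, against 20.6% of all genes: eif-2alpha, eif-2gamma, eif-2Bgamma, eif-3.C, eif-3.F, ife-1 and ife-5. None had an optimal peak at the first gene of its run, and the share of this over all genes in runs is not given here. Of the 7, eif-2Bgamma and eif-3.C had the peaks of their own described above, against 185 of all 4105 genes in such runs. Counting a peak at the own promoter or at the first gene, 12 of 32 members (37.5%) held one, against 7.95% of all genes. Among the 25 outside such runs, 10 (40%) held a peak, against 6.02% of all genes outside them.

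Peaks were spread over chromosomes. They were found at 5 of 11 members on I, 3 of 11 on II, 2 of 4 on III, 1 of 3 on V and 1 of 2 on X, and not at eif-1.A, the single member on IV. Over all genes, between 4.28% (X) and 9.20% (III) of a chromosome held an optimal peak.

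Other translation genes, from lists made by function, gave mixed shares. Of 9 initiation genes outside the name rule, 2 had an optimal peak (22.2%). These were drr-2, an eIF4H relative, with a pooled signal value of 491 (rank 78), 319 in replicate 1 (rank 74) and 175 in replicate 2 (rank 80), and iff-2, an eIF5A gene, with 373 (rank 113), 249 (rank 112) and 123 (rank 138). pab-2, for a poly(A)-binding protein, was below the set at rank 1421, inf-1, for eIF4A, at 4152, pab-1 at 12715 and iff-1 at 18556, and iffb-1, mxt-1 and gyf-1 had no pooled region. iftb-1 and ppp-1, also on that list, had no match by name in the annotation. They may be older names of the members eif-2beta and eif-2Bgamma, which the tables used here do not settle, so they are not counted among the 9.

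Of 9 elongation and release factor genes, 6 had a peak (66.7%), led by eef-1A.2 with a signal value of 1287 (rank 9), and so had 38 of 81 cytosolic ribosomal protein genes (46.9%). These shares were not tested against that of the initiation factors. Of 6 genes for eIF2 kinases and their partners, 1 held a peak (16.7%). It was gcn-2, the kinase that senses lack of amino acids. It had 95.8 in the pooled list (rank 987), 59.3 in replicate 1 (rank 1119) and 37.9 in replicate 2 (rank 926). Its activator gene gcn-1 was just outside the set with rank 1373. The gene of the other kinase, pek-1, had rank 2595, the bZIP gene atf-4 6261 and the phosphatase gene gsp-2 2567, and gsp-1 had no region. Of 10 genes of the TOR pathway, which links nutrients to translation, 1 held a peak (10%). It was rheb-1, with 157 (rank 528), 93.8 (rank 603) and 62.9 (rank 437), and the kinase gene let-363 had rank 7651. The shares for the eIF2 kinase and TOR lists rest on a single gene each, beside 5.71% of all protein-coding genes, and were not tested.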

How the data were processed

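The deposited files were narrowPeak lists on ce11, per the labels. Per the file descriptions deposited with them, candidate regions came from each replicate's alignments, or both together, and a control alignment. The sources used here do not give the aligner, the peak caller, its settings, the repeatability threshold or the depth. Ranks used the signal value that the authors deposited, whose scale is not stated. From the deposited −log10 of the q-value, q-values were computed, and 825 pooled regions share the lowest one. No p-value was given. All 90000 regions of the 3 lists lay within the WBcel235 chromosomes.

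Genes, starts and biotypes came from Ensembl release 115. Assignment, words and intervals were computed in Python 3.11.15 with numpy 2.4.6, pandas 2.3.3 and scipy 1.17.1, and assignment was tested on planted summits. Members, lists and words were chosen with earlier results of these data known. Named were members with an optimal peak in full, then those with a q-value of 0.05 or less or a region among the strongest of both replicates, then the rest by best rank. Genes that share an optimal peak with a member were named beside it. Those that share a weaker region were named in part. The pooled regions of eif-3.H, eif-2Bepsilon, eif-4A3, eif-1.A and eif-2D also lay in the promoters of genes not named above. Genes that stand upstream of weak regions, and those of the lists, were named for comparison. The 2 samples are labelled as biological replicates. No test was run.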

Additional observations from a re-analysis of the deposited data

How the results depend on the processing

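Of the 12 members with an optimal peak, 5 remained with the stronger part of the optimal set (ranks to 645, 3.30% of all genes), and 7 with summits in 1 promoter only. The count was 8 without replicate 1 (eif-2Bdelta, eif-2beta, eif-3.D and ife-2 were lost). It was 13 without replicate 2, where eif-2Bbeta and ife-3 were gained and eif-3.J was lost. With promoters of 500 and 100 bp it was 9 (4.48% of all genes), and eif-2Bgamma, eif-3.J and ifet-1 were lost. With the nearest start only it was also 9 (4.08%), and eif-3.D, ifet-1 and ifg-1 were lost. The count was 13, with eif-2gamma gained, for promoters of 2000 and 500 bp (7.35%) or any base in the window (6.07%). It was 12 with operon-like runs (7.95%) and 11 without peaks at ribosomal protein promoters (5.4%), both chosen after seeing the data, as were single promoters and small RNA genes. The 7 members held by both replicates became 3 with the 500 strongest regions of each and 12 with 5000 (2.12% and 7.29% of all genes). The median best rank was 2663 without replicate 1 and 1235 without replicate 2. The median distance was -411 bp without replicate 1 and -258.5 bp without replicate 2. C/EBP-type words were in 0 of the 13 peaks within 25 bp and 5 within 100 bp (16.6% and 41.0% of all optimal promoter peaks). The cause of each shift was not tested. Depth is unknown, so a missing region does not show that ZIP-4 is absent. With 1 group there was nothing to pair.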
